A study of Homo sapiens with 28 samples.

Results

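The nuclear RNA of MDA-MB-453 cells given JQ1 was compared with that of cells given the solvent DMSO. MDA-MB-453 is an established human breast cancer line of luminal type that has gained HER2 and expresses the androgen receptor. The comparison takes 6 of the series' 28 libraries, 3 per group, and every gene of the 2 deposited tables; the others are the cytoplasmic libraries after DMSO and JQ1 and the nuclear and cytoplasmic libraries after JQ1-VHL, IBET151 and IBET151-VHL. Both groups were in medium with 10% calf serum, had their agent for 3 h and 4-thiouridine at 0.1 mM for the last 60 min. Neither the dose of JQ1 nor whether a replicate was a separate culture is stated in the labels, so p-values measure the spread between these libraries. The cells were mixed with 10% Drosophila S2 cells and opened with digitonin, the pellet was kept as the nuclear fraction, and libraries from the 3′ ends of polyadenylated RNA were sequenced with single reads of 100 bp. Since no library without 4-thiouridine was analysed, T>C reads that do not come from labelling cannot be counted.

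BET proteins hold acetylated histones through paired bromodomains and help RNA polymerase II leave its paused state near the start of genes. JQ1 fills the bromodomain pocket and displaces them from chromatin. In cells it is known to lower RNAs that depend on dense BET binding, MYC among them, and to raise others, such as HEXIM1 and histone genes. In SLAM-seq, 4-thiouridine enters RNA made during labelling and is read as a T-to-C conversion after alkylation, so T>C reads report recent synthesis and all reads report the whole pool of a fraction. A nuclear pool holds pre-mRNA, RNA awaiting export and retained RNA; here only its polyadenylated part was read.

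Values given in CPM are relative to the library's own total, and all other values are reads that the authors scaled to ERCC spike-in RNA. The spike-in was added per mass of extracted RNA, so the scale is one of reads per mass of RNA. It shows neither RNA per cell or nucleus nor the number of nuclei. The 6 libraries held 20737147 to 38658448 reads and 751730 to 1928012 T>C reads. Replicate 3 stood apart in both groups. MALAT1, a nuclear noncoding RNA, stood at 2038, 1084 and 273 CPM in DMSO replicates 1 to 3 and at 1736, 1174 and 389 with JQ1, against 44.9 to 109 in the 6 cytoplasmic libraries. T>C reads made up 8.02%, 6.34% and 2.25% of reads with DMSO and 6.67%, 5.69% and 1.94% with JQ1. Replicate 3 was thus lowest in both measures and nearest to the cytoplasm, in both groups alike, and the same replicate number is compared across groups throughout. The 10 luminal markers made 7496 to 8719 CPM with DMSO and 6011 to 6716 with JQ1. Of 17 markers of basal, stromal, endothelial and immune cells and hormone receptors, 15 were in the table, at 95.2 to 152 CPM with DMSO and 96.7 to 144 with JQ1 in sum, and 1 was at 0 in all 6 libraries.

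The summed nuclear signal was lower with JQ1 in each of the 3 pairs. All reads summed to 22303955, 48547432 and 67900669 on the ERCC scale with DMSO and to 15825037, 38469232 and 62029644 with JQ1, a mean log2 change of -0.32 ± 0.18 (SD, n = 3 pairs). In T>C reads the pairs differed by -0.76, -0.49 and -0.34 on the log2 scale, with a mean of -0.53 ± 0.21 (SD, n = 3 pairs). The T>C share of reads was lower in each pair, with differences of -1.35, -0.65 and -0.31 percentage points. None of the 3 measures can pass a test here, since an exact paired permutation test of 3 pairs cannot go below its 2-sided p = 0.25, which each measure reached. Unpaired, the exact permutation p was 0.6 for all reads, 0.3 for T>C reads and 0.7 for the T>C share, and in each measure the groups overlapped.

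**Figure D1:**
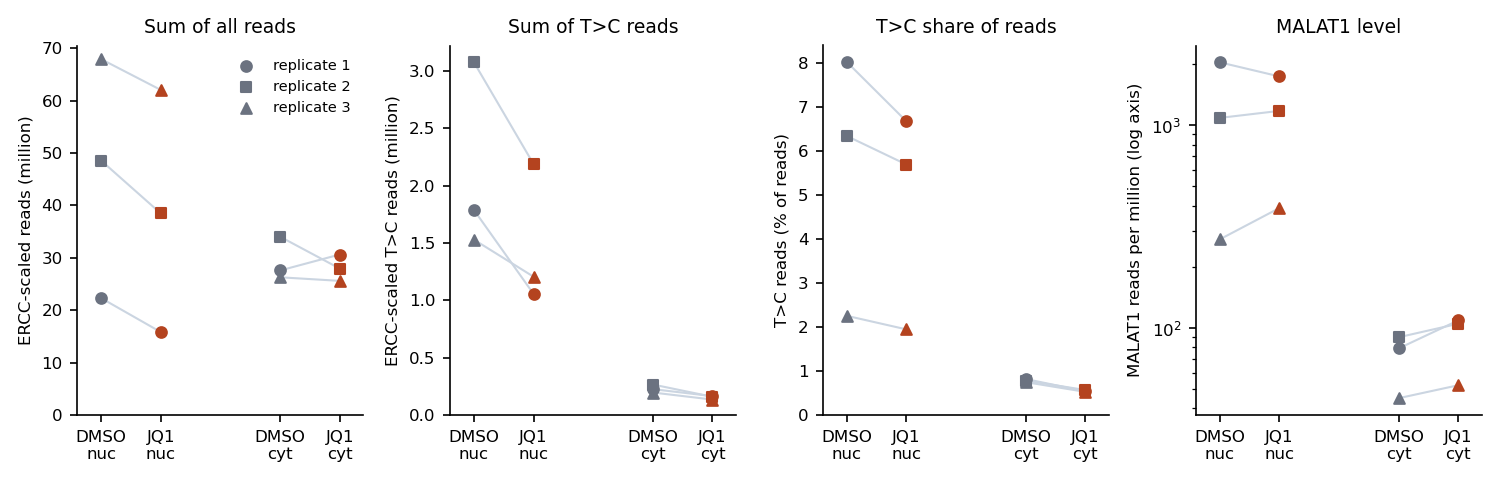
Summed ERCC-scaled reads, summed T>C reads, T>C share of reads and MALAT1 CPM (log axis) in the DMSO (grey) and JQ1 (red) libraries of the nucleus (nuc) and cytoplasm (cyt); marker shapes are replicate numbers and lines join them. All 3 nuclear lines fall in the first 3 panels, and replicate 3 has the lowest nuclear T>C share and MALAT1 level.

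The median gene was lower with JQ1 in every pair. Changes were tested with limma on log2(value + 1) with the replicate number as a block. Of 13768 genes tested in all reads, 396 were higher with JQ1 (2.88%) and 5939 lower (43.1%) at an adjusted p under 0.05, 46.0% together, and the median gene changed by -0.43. The shift of the median gene was -0.64, -0.41 and -0.23 in pairs 1 to 3, and only these 3 values measure it. When each library was scaled to its median gene instead (median-ratio scaling), the median change was 0.03, 1836 genes were higher (13.3%) and 1630 lower (11.8%), 25.2% together. The 2 scalings shared 392 higher genes and 1630 lower genes. Without replicate 2 of both groups 140 genes were higher and 1467 lower, without replicate 1 the counts were 466 and 4469, and without replicate 3 they were 242 and 4944. Leaving out the block left 1 higher and 1 lower gene.

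Values below are given for DMSO and then JQ1 replicates 1, 2 and 3, in ERCC-scaled reads. Each log2 change is limma's paired estimate on the ERCC scale with its SE, and each adjusted p is the larger of the values under the 2 scalings unless one is named. limma found no difference between genes in spread on the ERCC scale in all reads, so each gene took the spread usual at its expression level, and p-values there draw on all genes and not on 3 pairs alone. "Rose" and "fell" mean an adjusted p under 0.05 on the ERCC scale. A change between 0 and -0.43 lies above that of the median gene. Counts of list members in all reads are to be read beside the shares of all genes, of which 2.88% rose and 43.1% fell. On the median-ratio scale 13.3% of all genes were higher and 11.8% lower.

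TEX14, a gene of germ cell bridges, had the largest rise. Its nuclear reads were 70.5, 103 and 107 with DMSO and 1487, 3231 and 1442 with JQ1, a log2 change of 4.36 (SE 0.21, adjusted p = 1.53e-10). Every JQ1 library lay above every DMSO library. TUBB3, the neuronal beta-tubulin, went from 6.49, 31.8 and 49.8 to 121, 295 and 428, a change of 3.43 (SE 0.30, adjusted p = 9.37e-08), again without overlap. The polyadenylated reads of H2BC18, a histone H2B gene with close copies that share reads, were 288, 465 and 249 with DMSO and 1896, 4001 and 2288 with JQ1, a change of 3.00 (SE 0.20, adjusted p = 1.96e-11). The JQ1 libraries of all 3 genes were thus the high ones, whichever replicate was taken.

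Other large rises named here lay between 2.18 and 2.53. RGS2, a brake on G protein signalling, read 20.4, 51.3 and 93.8 and then 111, 369.9 and 497 (log2 change 2.53, SE 0.27, adjusted p = 8.95e-08). DHRS2, a short-chain dehydrogenase, read 45.4, 168 and 283 and then 225, 691 and 2469, so the groups overlapped although each pair rose, and its change was 2.48 (SE 0.22, adjusted p = 1.60e-08). MAFA, a transcription factor of pancreatic beta cells, changed by 2.23 (SE 0.23, adjusted p = 3.57e-08), and DYRK3, a kinase that dissolves nuclear speckles and stress granules, by 2.19 (SE 0.27, adjusted p = 5.60e-07). DLL4, a ligand of Notch receptors, read 37.1, 97.3 and 76.6 with DMSO and 167, 383 and 416 with JQ1. IQCN changed by 2.40 (SE 0.29, adjusted p = 3.08e-07). On the ERCC scale each of these genes, TEX14, TUBB3 and H2BC18 included, also passed without any one pair.

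The largest falls were in genes of low to middle level. ZFP37, a zinc finger protein, read 67.7, 119 and 153 with DMSO and 4.58, 11.7 and 11.2 with JQ1 (log2 change -3.51, SE 0.39, adjusted p = 6.13e-06). METTL18, a histidine methyltransferase, read 119, 386 and 459.6 and then 6.87, 45.5 and 65.8 (log2 change -3.26, SE 0.29, adjusted p = 5.60e-07). In both genes the JQ1 libraries lay below all DMSO libraries. METTL18 overlaps a neighbouring gene, and whether counting used strand is not given in the sources used here, so its reads are uncertain. ZNF689, another zinc finger gene, went from 714, 1590.3 and 1499 to 96.2, 189 and 245 and changed by -2.85 (SE 0.21, adjusted p = 1.75e-08).

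ADAMTS4, which cleaves aggrecan, read 254, 474 and 266 and then 27.5, 63.0 and 32.1 (log2 change -3.02, SE 0.27, adjusted p = 3.62e-07). FOXM1, a transcription factor of mitotic genes, read 146, 338 and 70.9 with DMSO and 22.1, 28.0 and 9.63 with JQ1, a change of -2.99 (SE 0.33, adjusted p = 1.05e-05). Its highest JQ1 library stayed below its lowest DMSO library. The other 6 of the 10 falls were LRFN2 (-3.31), a synaptic adhesion protein, ACKR3 (-3.30), a scavenging chemokine receptor, DOK7 (-3.04), an adaptor at the neuromuscular junction, FFAR2 (-2.99), a receptor of short-chain fatty acids, TSHZ3 (-2.99) and C19orf44 (-2.97). All 10 passed under both scalings and, on the ERCC scale, without any one pair.

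**Figure D2:**
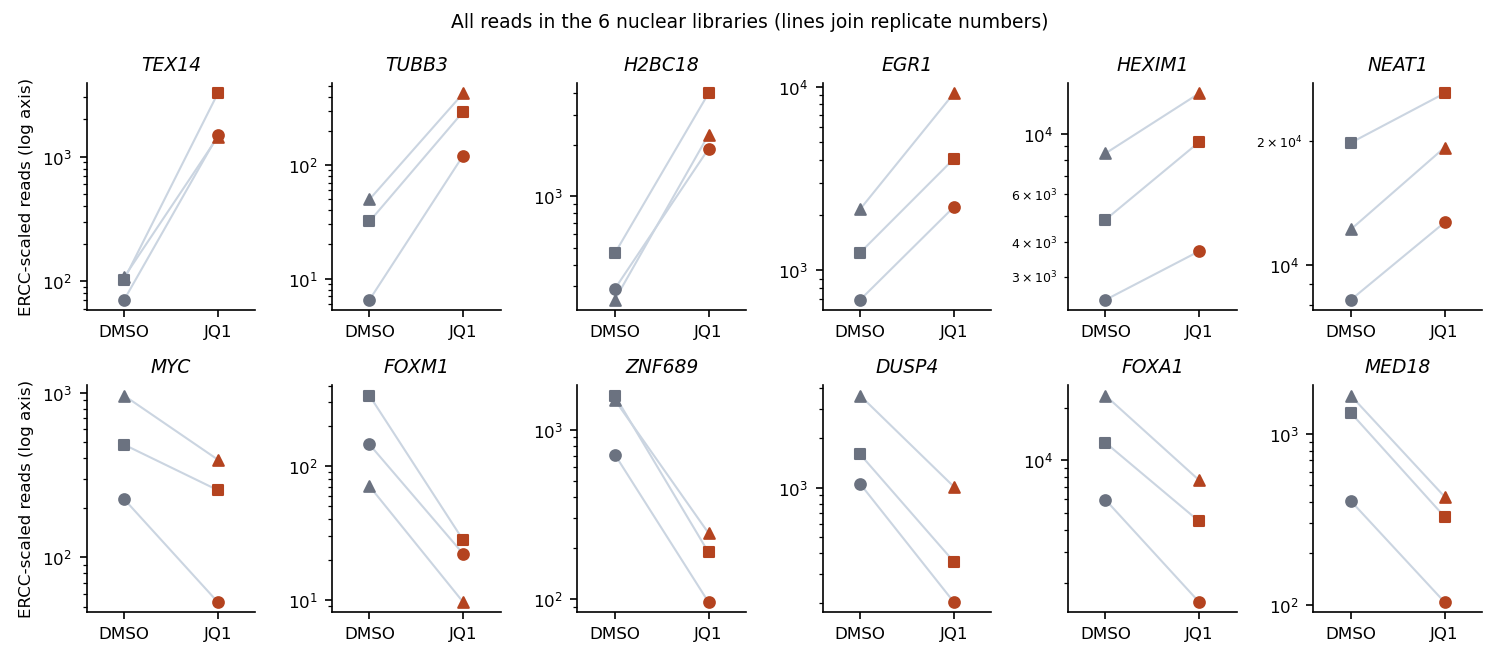
ERCC-scaled reads (log axes) of 12 genes in the 3 DMSO (grey) and 3 JQ1 (red) nuclear libraries, with marker shapes for replicate numbers (circle 1, square 2, triangle 3) and lines joining them. Every line climbs in the upper row and falls in the lower row; the spread between replicates of a group is often as wide as the step between groups, as for MYC, HEXIM1 and NEAT1.

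Most tested histone genes rose. Canonical histone mRNAs end in a stem-loop in place of a poly(A) tail, so the reads here come from polyadenylated forms and replacement histones. On the ERCC scale 12 of 20 tested histone genes rose and 0 fell, beside 2.88% and 43.1% of all genes, and 16 rose on the median-ratio scale and 12 without replicate 3. The list's median change was 0.65, against -0.43 for all genes. All 6 H2B genes of the list rose. H2BC11 read 391, 759 and 387 with DMSO and 1099, 2640.4 and 1415 with JQ1 (log2 change 1.72, SE 0.20, adjusted p = 5.58e-09). H2BC4 changed by 1.55 (SE 0.22, adjusted p = 1.65e-07) and H2BC21 by 1.66 (SE 0.19, adjusted p = 2.59e-08). H2AC6, an H2A gene, read 814, 1489 and 2114 and then 1670.5, 3745 and 4756 (log2 change 1.18, SE 0.18, adjusted p = 6.35e-08), so that its groups overlapped.

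The sequences before the start sites of 3 histone genes and of HEXIM1 are shown because these genes moved the same way. They are 250 bases of RefSeq promoters in GRCh38.p14, 5′ to 3′ on the gene's strand, with the TATA box letters (TATAAA) and the CCAAT box letters in capitals where either strand holds them, so that a match on the other strand shows as its reverse complement. The authors' reads were placed on hg19, per the submitters' processing notes, so no position of theirs is used. The windows are chr1:149812371-149812620, minus strand for H2BC18, chr6:27132796-27133045, minus strand for H2BC11, chr6:26056471-26056720, minus strand for H1-2 and chr17:45148225-45148474, plus strand for HEXIM1.
H2BC18: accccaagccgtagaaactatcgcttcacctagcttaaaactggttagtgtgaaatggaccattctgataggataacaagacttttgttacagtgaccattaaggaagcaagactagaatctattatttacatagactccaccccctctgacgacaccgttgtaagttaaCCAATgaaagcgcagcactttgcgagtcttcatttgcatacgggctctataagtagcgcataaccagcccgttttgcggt
H2BC11: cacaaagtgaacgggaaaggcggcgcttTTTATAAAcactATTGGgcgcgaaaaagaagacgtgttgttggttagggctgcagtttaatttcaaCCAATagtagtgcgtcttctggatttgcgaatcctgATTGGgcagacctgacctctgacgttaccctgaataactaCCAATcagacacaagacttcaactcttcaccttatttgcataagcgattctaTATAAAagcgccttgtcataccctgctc
H1-2: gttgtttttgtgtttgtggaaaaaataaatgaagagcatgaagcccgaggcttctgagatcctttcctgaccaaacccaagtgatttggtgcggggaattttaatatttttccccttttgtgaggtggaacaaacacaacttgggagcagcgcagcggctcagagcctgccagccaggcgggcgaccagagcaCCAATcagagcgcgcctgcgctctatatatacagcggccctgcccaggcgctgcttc
HEXIM1: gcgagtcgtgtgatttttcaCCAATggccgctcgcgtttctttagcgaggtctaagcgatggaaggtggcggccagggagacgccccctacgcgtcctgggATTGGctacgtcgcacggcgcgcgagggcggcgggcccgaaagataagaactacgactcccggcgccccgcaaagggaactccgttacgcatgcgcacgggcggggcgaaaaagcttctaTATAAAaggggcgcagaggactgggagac
H2BC11 held 3 matches of the TATA box letters, 2 of them overlapping on opposite strands, and 4 of the CCAAT box letters. HEXIM1 held 1 and 2, and H2BC18 and H1-2 held 1 CCAAT box each. Of 27305 RefSeq promoter windows of this length, 11.1% held the TATA box letters and 33.0% the CCAAT box letters. A match is a description of letters and was not tied to binding. Too few of the rising genes had a window (74.5%) for a share over them to be given.

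Of the genes that BET inhibitors are known to induce, most rose. In that list, 9 of 10 tested members rose and 0 fell (8 and 0 without replicate 3), with a median of 0.80. The list was taken from knowledge of such drugs, but with earlier results of these data known, so its count is no independent support. It shares H2AC6, H2BC21 and others with the histone list. HEXIM1, which holds the elongation kinase P-TEFb inactive, read 2467, 4849 and 8474 with DMSO and 3717, 9326 and 14056 with JQ1 (log2 change 0.75, SE 0.16, adjusted p = 2.39e-05). The groups overlapped, and each pair rose. ZCCHC24 changed by 1.65 (SE 0.20, adjusted p = 1.94e-08) and SERPINI1, a neuronal protease inhibitor, from 16.7, 33.6 and 34.5 to 90.0, 159 and 136 (log2 change 2.17, SE 0.32, adjusted p = 3.65e-06). BRD2, itself a BET gene, changed by 0.54 (SE 0.13, adjusted p = 2.74e-04). HEXIM1 (adjusted p = 0.0914) did not pass on the ERCC scale without replicate 2 of both groups. BRD2 (adjusted p = 0.0585) did not pass on the ERCC scale without replicate 3 of both groups.

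HEXIM1 was the 1 riser among genes of elongation control. Of 33 tested genes of P-TEFb, the 7SK particle and elongation factors, 1 rose and 14 fell on the ERCC scale, beside 2.88% and 43.1% of all genes. On the median-ratio scale 5 were higher and 5 lower, and the ERCC-scale median of -0.38 was near that of all genes. HEXIM2, the paralogue of HEXIM1, read 202, 564 and 714 and then 64.1, 174 and 259.9 (log2 change -1.60, SE 0.23, adjusted p = 1.03e-04). LARP7, which binds the 3′ end of 7SK RNA, changed by -1.09 (SE 0.17, adjusted p = 4.90e-04). LEO1, a subunit of the PAF complex that travels with the polymerase, changed by -1.12 (SE 0.18, adjusted p = 7.70e-04), and NELFCD, of the pausing factor NELF, by -0.87 (SE 0.17, adjusted p = 0.0233). These 4 genes fell below the shift of the median gene. NELFCD (adjusted p = 0.0561) did not pass on the ERCC scale without replicate 2 of both groups.

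Of 12 immediate-early transcription factors, 7 rose and 0 fell, and 9 rose and 0 fell on the median-ratio scale. Of 31 other short-lived regulators, 7 rose and 9 fell, beside 43.1% of all genes that fell, and 17 rose and 3 fell on the median-ratio scale. In the whole list 14 of its 43 tested members rose and 9 fell on the ERCC scale, against 26 higher and 3 lower on the median-ratio scale and 12 and 8 without replicate 3. EGR1, a zinc finger factor induced by growth signals, read 690.0, 1247 and 2151 with DMSO and 2209, 4039 and 9181 with JQ1 (log2 change 1.82, SE 0.18, adjusted p = 1.58e-09). All its JQ1 libraries lay above all DMSO libraries. FOS, of the AP-1 dimer, read 83.5, 281 and 253 and then 186, 1028 and 979 (log2 change 1.65, SE 0.22, adjusted p = 1.36e-07), with overlap between the groups. IER5 changed by 1.64 (SE 0.17, adjusted p = 5.27e-09).

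MYC went down. Its reads were 225, 483 and 959 with DMSO and 53.4, 256 and 392 with JQ1, a log2 change of -1.42 (SE 0.23, adjusted p = 9.22e-04), and the groups overlapped although each pair fell. ZFP36L1, which binds AU-rich mRNAs and speeds their decay, read 15993, 23619 and 25219 and then 3552, 9429 and 8217 (log2 change -1.70, SE 0.14, adjusted p = 2.71e-06), and its groups did not overlap. BHLHE40, a repressor of the circadian and hypoxic programmes, changed by -1.43 (SE 0.19, adjusted p = 3.91e-05).

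Most feedback genes of the MAP kinase pathway fell. The list holds phosphatases and the Sprouty family, which are induced by ERK signalling and restrain it, and 3 tested genes listed as targets. Of its 16 tested members 1 rose and 10 fell on the ERCC scale, beside 2.88% and 43.1% of all genes. The counts were 5 higher and 8 lower on the median-ratio scale and 1 and 9 without replicate 3. Its median was near that of all genes in T>C reads (-0.71 against -0.69) and below it in all reads (-0.999). All 5 tested members of the Sprouty family fell on the ERCC scale, and 3 of them on the median-ratio scale. DUSP4, a nuclear phosphatase of ERK, read 1054, 1592 and 3621 with DMSO and 201, 355 and 1012 with JQ1 (log2 change -2.13, SE 0.20, adjusted p = 1.34e-07). SPRY1 read 757, 1603 and 2309.6 and then 208, 445 and 611 (log2 change -1.87, SE 0.20, adjusted p = 1.39e-06). Each JQ1 library was below its DMSO partner in both genes, and no JQ1 library reached the lowest DMSO library. DUSP6, a cytoplasmic ERK phosphatase, changed by -1.21 (SE 0.16, adjusted p = 4.00e-04) and SPRED2 by -1.28 (SE 0.19, adjusted p = 0.00115). The 1 member that rose was PHLDA1, which is among the 3 targets, at 1.08 (adjusted p = 0.00225, and 0.132 on the ERCC scale without replicate 2). PHLDA1 was chosen after its value was seen.

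Cytokine feedback genes went both ways. In that list, which also holds NF-kappaB targets, 2 of its 17 tested members rose and 8 fell on the ERCC scale, beside 2.88% and 43.1% of all genes. The counts were 3 higher and 4 lower on the median-ratio scale and 2 and 6 without replicate 3. SOCS2, an inhibitor of growth hormone and JAK signalling, read 277, 782 and 1002 and then 64.1, 216 and 278 (log2 change -1.93, SE 0.22, adjusted p = 3.93e-06). CISH, of the same family, changed by -1.24 (SE 0.20, adjusted p = 2.70e-04). SOCS1 read 18.5, 56.6 and 138 with DMSO and 80.9, 287 and 385 with JQ1 and rose by 1.95 (SE 0.28, adjusted p = 2.31e-06), opposite to both. The groups of SOCS1 and SOCS2 overlapped, with all 3 pairs alike in direction.

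Most luminal transcription factors fell, while few luminal structural genes did. Over the list, 0 of its 34 tested members rose and 21 fell on the ERCC scale, beside 2.88% and 43.1% of all genes. The counts were 8 higher and 7 lower on the median-ratio scale and 0 and 20 without replicate 3. By role, 12 of 15 transcription factors fell on the ERCC scale and 7 of 15 on the median-ratio scale, while 3 and 0 of 11 structural and secreted genes fell; the difference between the roles was not tested. FOXA1, a pioneer factor of luminal cells, read 5941, 12596 and 23425 with DMSO and 1546, 4469.9 and 7683 with JQ1 (log2 change -1.68, SE 0.16, adjusted p = 8.61e-07). TFAP2B, an AP-2 factor, read 15455, 28324 and 39040.3 and then 3394, 9162 and 17263 (log2 change -1.66, SE 0.14, adjusted p = 4.32e-06). The groups of both genes overlapped, with each JQ1 library below its DMSO partner. XBP1, a factor of secretory cells, changed by -1.31 (SE 0.11, adjusted p = 2.68e-04).

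GATA3, a master factor of luminal cells, read 54024, 99087 and 157707 with DMSO and 25027, 49495 and 66979 with JQ1 (log2 change -1.12, SE 0.10, adjusted p = 0.00395). ERBB2, which encodes the HER2 receptor, changed by -0.67 (SE 0.11) with an adjusted p of 4.68e-08 on the ERCC scale, and by -0.20 with an adjusted p of 0.297 on the median-ratio scale. Its fall was thus near that of the median gene. HER receptors and neighbours in the amplicon, ERBB2 included, were alike, with 6 of the 8 genes lower on the ERCC scale and 0 on the median-ratio scale.

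Cell cycle and growth genes mostly followed the shift of the median gene, with a few that fell further. In the cell cycle list 0 of its 31 tested members rose and 18 fell on the ERCC scale, beside 2.88% and 43.1% of all genes. The counts were 4 higher and 4 lower on the median-ratio scale and 0 and 16 without replicate 3. Its median of -0.44 was near -0.43. E2F2, an activator of S-phase genes, read 1975, 5316 and 5590.0 and then 564, 1610.2 and 2192 (log2 change -1.63, SE 0.18, adjusted p = 1.61e-06), with overlap. E2F8, a repressor of the same genes, changed by -1.70 (SE 0.23, adjusted p = 7.39e-05) and AURKA, a mitotic kinase, by -0.92 (SE 0.18, adjusted p = 0.0145). Among ribosome biogenesis genes and MYC targets 0 of its 30 tested members rose and 15 fell on the ERCC scale, against 2 higher and 3 lower on the median-ratio scale and 0 and 15 without replicate 3. PPAN, which shares its locus with a readthrough transcript, changed by -1.40 (SE 0.19, adjusted p = 1.00e-04), RRS1 by -1.17 (SE 0.18, adjusted p = 3.65e-04) and WDR43 by -0.82 (SE 0.17, adjusted p = 0.0272). POLR1B, a subunit of RNA polymerase I, changed by -0.65 with adjusted p = 0.00279 on the ERCC scale and 0.271 on the median-ratio scale. AURKA (adjusted p = 0.11), WDR43 (adjusted p = 0.0766) and POLR1B (adjusted p = 0.166) did not pass on the ERCC scale without replicate 2 of both groups.

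Subunits of Mediator, the complex that links enhancer factors to the polymerase, included strong falls. In the list of polymerase II and Mediator genes 1 of its 40 tested members rose and 21 fell on the ERCC scale, against 5 higher and 8 lower on the median-ratio scale and 1 and 16 without replicate 3, and the median was -0.43. MED18 read 405, 1330.2 and 1678 with DMSO and 104, 328 and 430.0 with JQ1 (log2 change -1.98, SE 0.21, adjusted p = 1.38e-06), with 1 JQ1 library above the lowest DMSO library. MED7, of the middle module, changed by -1.50 (SE 0.23, adjusted p = 1.95e-04), MED6 by -1.17 (SE 0.19, adjusted p = 4.09e-04) and MED10 by -1.06 (SE 0.20, adjusted p = 0.00341). POLR2A, the largest polymerase subunit and the 1 riser of the list, changed by 0.73 (SE 0.16, adjusted p = 3.85e-05) and was chosen after its value was seen. By role 20 of 31 Mediator genes and 1 of 9 polymerase genes fell on the ERCC scale, beside 43.1% of all genes. On the median-ratio scale 8 Mediator genes were lower and 3 higher, against 0 and 2 polymerase genes. Over all genes 11.8% were lower and 13.3% higher on that scale. POLR2A (adjusted p = 0.0619) did not pass on the ERCC scale without replicate 2 of both groups.

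Targets of p53 split. In that list 6 of its 23 tested members rose and 6 fell on the ERCC scale, against 12 higher and 3 lower on the median-ratio scale and 5 and 5 without replicate 3. CDKN1A, an inhibitor of cyclin-dependent kinases, read 143, 599.7 and 726 with DMSO and 427, 1462 and 1982 with JQ1 (log2 change 1.44, SE 0.20, adjusted p = 1.36e-07). MDM2, which destroys p53, read 2658, 4728 and 5655 and then 906, 2205 and 2838 (log2 change -1.22, SE 0.18, adjusted p = 1.05e-04). CCNG2 changed by -1.39 (SE 0.20, adjusted p = 5.32e-05) and PLK2 by -1.37 (SE 0.17, adjusted p = 2.37e-05), so CDKN1A moved against the other 3. PMAIP1, a BH3-only gene that favours apoptosis, went from 10.2, 15.9 and 24.9 to 34.3, 109 and 108 (log2 change 2.14, SE 0.38, adjusted p = 2.76e-05) and did not overlap. The groups of CDKN1A and MDM2 did, and PMAIP1 was chosen after its values were seen.

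Of the survival genes of the BCL2 family and its relatives 7 of 10 fell on the ERCC scale, and 4 fell and 1 rose on the median-ratio scale. Over the list 4 of its 21 tested members rose and 11 fell on the ERCC scale, beside 2.88% and 43.1% of all genes, with a median of -0.63. The counts were 5 higher and 5 lower on the median-ratio scale and 2 and 10 without replicate 3. The survival genes had a role median of -0.74. Of 11 death genes 3 rose and 4 fell, with a role median of -0.27, and 4 rose and 1 fell on the median-ratio scale; the difference between the roles was not tested. CFLAR, which blocks caspase 8, read 3049, 5247 and 4391 with DMSO and 685, 1884 and 2197 with JQ1 (log2 change -1.54, SE 0.18, adjusted p = 1.82e-05), without overlap. BCL2L1, which encodes BCL-XL, changed by -1.13 (SE 0.17, adjusted p = 3.47e-04) and BCL2L2 by -1.42 (SE 0.23, adjusted p = 0.00525). BMF, a BH3-only gene on the death side, changed by -1.76 (SE 0.30, adjusted p = 8.85e-04).

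The medians of the heat shock and sterol lists lay above that of all genes. In the heat shock list 4 of its 20 tested members rose and 2 fell on the ERCC scale, against 9 higher and 0 lower on the median-ratio scale and 3 and 1 without replicate 3, with a median of -0.12. DNAJB1, a cochaperone, read 2860.3, 7684 and 9319 and then 4786, 9724 and 16498 (log2 change 0.64, SE 0.15, adjusted p = 2.82e-04). HSPA1A changed by 0.50 (SE 0.15, adjusted p = 0.00246) and HSPA1B by 0.56 (SE 0.18, adjusted p = 0.00608); the 2 are near-identical copies and share reads. HSPA6 changed by -1.06 with adjusted p = 0.0166 on the ERCC scale and 0.233 on the median-ratio scale. Among sterol genes 2 of its 23 tested members rose and 4 fell on the ERCC scale, against 11 higher and 0 lower on the median-ratio scale and 2 and 4 without replicate 3. INSIG1, a brake on sterol synthesis, read 3417, 16341 and 6885 with DMSO and 5073, 22688 and 11773 with JQ1 (log2 change 0.61, SE 0.15, adjusted p = 3.55e-04). SREBF2, which encodes a factor that switches sterol genes on, changed by -0.47 on the ERCC scale and -0.01 on the median-ratio scale, where it did not pass. SREBF2 (adjusted p = 0.0817) did not pass on the ERCC scale without replicate 1 of both groups. HSPA1A (adjusted p = 0.15), HSPA1B (adjusted p = 0.296), HSPA6 (adjusted p = 0.157), INSIG1 (adjusted p = 0.0802) and SREBF2 (adjusted p = 0.189) did not pass on the ERCC scale without replicate 2 of both groups. HSPA6 (adjusted p = 0.112) did not pass on the ERCC scale without replicate 3 of both groups.

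Nuclear noncoding RNAs differed from one another. NEAT1, the scaffold of paraspeckles, read 8234, 19805 and 12205 with DMSO and 12685, 26107 and 19280.3 with JQ1 (log2 change 0.56, SE 0.14, adjusted p = 2.88e-04), higher in all 3 pairs with overlapping groups. MALAT1, a speckle RNA, read 45465, 52629 and 18517 and then 27477, 45157 and 24149, a change of -0.19 (SE 0.12, adjusted p = 0.174), lower in 2 pairs and higher in replicate 3. PVT1, the noncoding neighbour of MYC, changed by -1.10 (SE 0.17, adjusted p = 0.00681). JPX changed by -0.77 and FTX by -0.48, with adjusted p = 0.087 and 0.964 on the median-ratio scale. FTX (adjusted p = 0.866) did not pass on the ERCC scale without replicate 1 of both groups. FTX (adjusted p = 0.0763) did not pass on the ERCC scale without replicate 2 of both groups. FTX (adjusted p = 0.156) did not pass on the ERCC scale without replicate 3 of both groups.

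List medians of genes of RNA handling in the nucleus were near the -0.43 of all genes, while single members moved further. These medians were -0.43 for export factors, -0.34 for speckle and SR protein genes and -0.30 for hosts of small nucleolar RNAs. Among mRNA export factors 1 of its 35 tested members rose and 18 fell on the ERCC scale, against 4 higher and 1 lower on the median-ratio scale and 1 and 14 without replicate 3. NXF1, the export receptor of bulk mRNA, was the 1 riser on the ERCC scale, at 0.73 (SE 0.17, adjusted p = 1.09e-04). ZC3H11A, NUP153 and ALYREF changed by -0.80, -0.82 and -0.65, with adjusted p-values on the median-ratio scale of 0.0641, 0.0445 and 0.352. In the speckle and SR protein list 1 of its 36 tested members rose and 19 fell on the ERCC scale. The counts were 6 higher and 3 lower on the median-ratio scale and 1 and 17 without replicate 3. DYRK3 was the 1 riser on the ERCC scale, at 2.19. SRSF4 changed by -1.07 (SE 0.18, adjusted p = 0.00138) and DYRK1A by -1.02 (SE 0.18, adjusted p = 0.00133). SON, a speckle scaffold, changed by -0.71, which did not pass on the median-ratio scale (adjusted p = 0.158). Hosts of small nucleolar RNAs showed 0 higher and 3 lower of 10, beside 43.1% of all genes that fell, and 3 higher and 1 lower on the median-ratio scale; SNHG15 changed by -0.86 (SE 0.20, adjusted p = 0.0419), while SNHG16 (-0.42), DANCR (-0.46) and SNHG32 (-0.40) turned to 0.05, 0.00 and 0.07 on the median-ratio scale. SNHG16 (adjusted p = 0.058) did not pass on the ERCC scale without replicate 1 of both groups. NXF1 (adjusted p = 0.0807), NUP153 (adjusted p = 0.0596), ALYREF (adjusted p = 0.132), SNHG15 (adjusted p = 0.141), SNHG16 (adjusted p = 0.293) and DANCR (adjusted p = 0.357) did not pass on the ERCC scale without replicate 2 of both groups.

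mRNAs abundant in the cytoplasm had list medians above that of all genes. Of 79 cytosolic ribosomal protein genes, 16 fell and 0 rose on the ERCC scale, 9 rose on the median-ratio scale, and their median was -0.20; without replicate 3, 14 fell and 0 rose. RPL30 read 16198, 52268 and 100605 with DMSO and 11068, 37263 and 72804 with JQ1 (log2 change -0.50 on the ERCC scale and -0.04 on the median-ratio scale). RPL34, RPL21 and RPL23A changed by -0.47, -0.52 and -0.50. Ribosomal protein mRNAs made 3.38%, 5.15% and 6.26% of nuclear reads with DMSO and 4.57%, 5.05% and 6.39% with JQ1, against 14.7% to 16.4% in the cytoplasm, so pair 1 differed in this share and its part in the result was not tested. mRNAs translated at the endoplasmic reticulum had 0 higher and 6 lower of 34 (0 and 6 without replicate 3), 8 higher and 0 lower on the median-ratio scale and a median of -0.19; PDIA3, DDOST, RPN1 and APP changed by -0.47, -0.45, -0.42 and -0.33. On the median-ratio scale these 4 values were -0.00, 0.01, 0.05 and 0.13, none past the threshold. Of the markers of other cell types, 8 were tested and 3 fell on the ERCC scale (TP63 -1.06, COL1A1 -0.49, VWF -0.86) and 0 on the median-ratio scale; ACTA2 changed by -0.87 and passed on neither. RPN1 (adjusted p = 0.187), APP (adjusted p = 0.406), COL1A1 (adjusted p = 0.255) and VWF (adjusted p = 0.219) did not pass on the ERCC scale without replicate 1 of both groups. RPL34 (adjusted p = 0.0946), RPL21 (adjusted p = 0.256), RPL23A (adjusted p = 0.155), PDIA3 (adjusted p = 0.12), DDOST (adjusted p = 0.188), RPN1 (adjusted p = 0.188), APP (adjusted p = 0.102), TP63 (adjusted p = 0.0618), COL1A1 (adjusted p = 0.23) and VWF (adjusted p = 0.13) did not pass on the ERCC scale without replicate 2 of both groups. DDOST (adjusted p = 0.0592) and VWF (adjusted p = 0.0929) did not pass on the ERCC scale without replicate 3 of both groups.

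**Figure D3:**
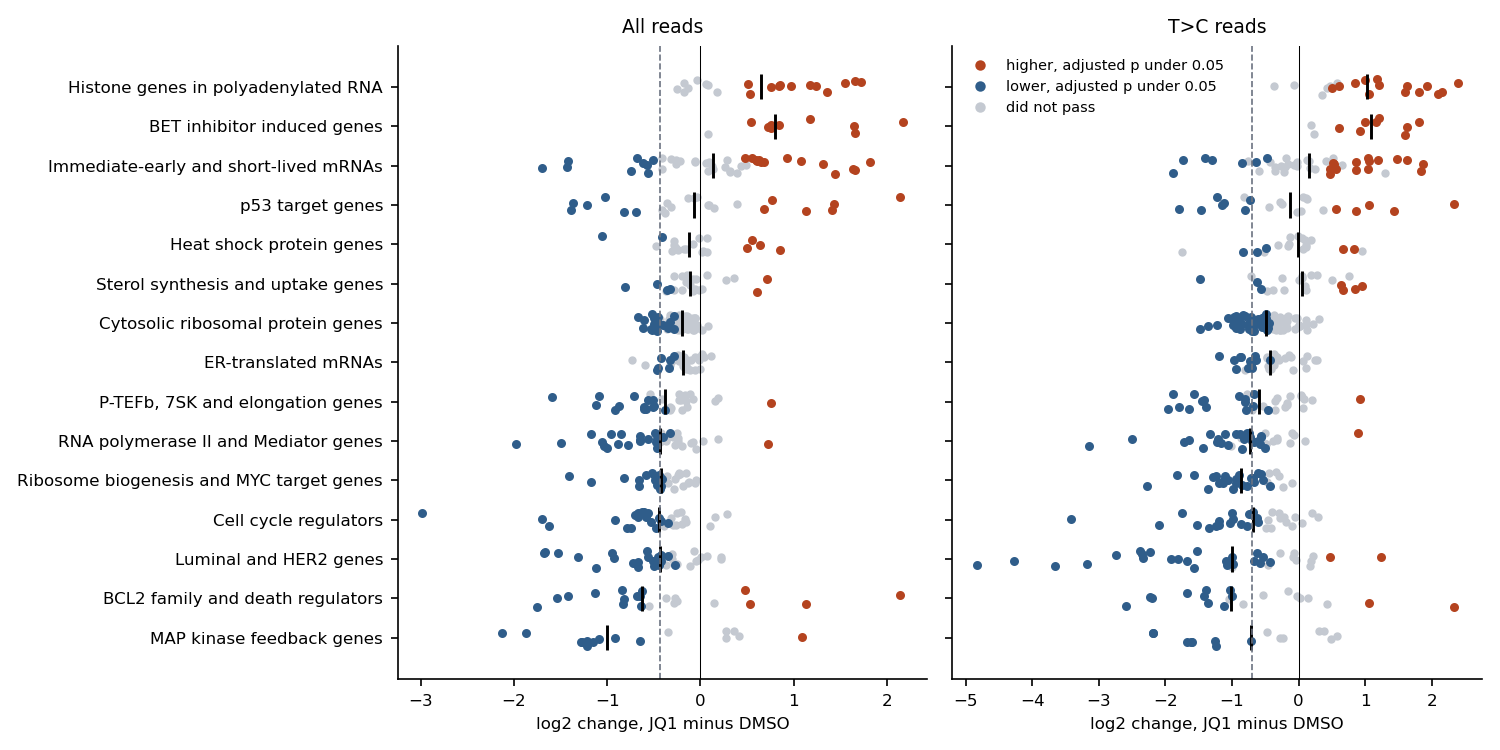
log2 change between JQ1 and DMSO (ERCC scale) of every tested member of 15 gene lists, with all reads on the left and T>C reads on the right; red and blue points passed at an adjusted p under 0.05, grey ones did not, bars are list medians and the dashed line is the median of all tested genes (-0.43 and -0.69). Histone and BET-induced genes lie right of both lines, and most MAP kinase feedback genes lie left of the dashed line in all reads.

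The median fall was deeper in RNA made in the last 60 min than in the whole pool. Of 11462 genes tested in T>C reads, 309 were higher with JQ1 (2.7%) and 5513 lower (48.1%), 50.8% together, with a median gene at -0.69. On the median-ratio scale 1676 genes were higher (14.6%) and 1612 lower (14.1%), 28.7% together, of which 309 and 1612 were also called on the ERCC scale. Without replicate 1, 2 or 3 of both groups, 356, 171 or 228 genes were higher and 4167, 3776 or 5459 lower. Leaving out the block left 20 and 451 genes.

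Among rising T>C genes, TEX14 again led. Its T>C reads were 8.35, 12.4 and 15.3 with DMSO and 225, 450.4 and 241 with JQ1 (log2 change 4.52, SE 0.31, adjusted p = 7.38e-12). DHRS2 read 0.927, 1.77 and 5.75 and then 35.1, 85.2 and 133 (log2 change 4.50, SE 0.50, adjusted p = 6.17e-08). In these DMSO libraries 1 read was worth 0.927, 1.77 and 1.92, so the DMSO values of DHRS2 and the size of its change rest on very few reads. Its groups did not overlap in T>C reads, while those of its whole pool did. MAP2, a microtubule protein of dendrites, read 7.42, 17.7 and 0 with DMSO and 74.0, 118 and 44.9 with JQ1 (log2 change 3.78, SE 0.51, adjusted p = 1.25e-06), while its whole nuclear pool changed by 0.80. MAPRE2, which binds growing microtubule ends, changed by 3.39 (SE 0.53, adjusted p = 1.02e-05) in T>C reads and by 0.84 in all reads.

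C12orf57 rose far more in T>C reads than in all reads. Its whole pool read 1509.9, 3886 and 8861 and then 2196, 5151 and 10999, a change of 0.42, and its T>C reads went from 20.4, 47.8 and 51.7 to 168, 342 and 213, a change of 2.61 (SE 0.26, adjusted p = 1.46e-08). Of the others, TUBB3 changed by 3.14, H2BC18 by 3.10, DLL4 by 2.66, and CADM2, a cell adhesion gene, by 2.64. Each JQ1 library of these genes was above its DMSO partner.

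The largest T>C falls left almost no new RNA of a gene. KIF5C, a neuronal kinesin heavy chain, read 200.3, 292 and 107 T>C reads with DMSO and 1.53, 1.17 and 0 with JQ1. Over the 3 libraries of a group these were 437 recovered T>C reads with DMSO and 3 with JQ1, a ratio of 188 (95% counting interval 63.8 to 914). Its whole nuclear pool read 2768, 4811 and 4550.2 and then 553, 1774 and 1709, a log2 change of -1.72 (SE 0.18, adjusted p = 2.55e-06). SLC1A7, a glutamate transporter, read 304, 561 and 30.6 T>C reads and then 1.53, 1.17 and 0, or 661 recovered T>C reads with DMSO and 3 with JQ1, a ratio of 284 (95% counting interval 96.7 to 1380.3). Its whole pool changed by -0.84 (SE 0.15, adjusted p = 0.0239), far less than its T>C reads. The intervals cover counting error only, and reads of PCR copies are not separate molecules.

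KMO, the kynurenine 3-monooxygenase, showed 246 recovered T>C reads with DMSO and 2 with JQ1, a ratio of 158 (95% counting interval 43.4 to 1316). ZBTB4, a zinc finger repressor, showed 132 recovered T>C reads with DMSO and 3 with JQ1, a ratio of 56.7 (95% counting interval 19.0 to 278), NME6 a ratio of 71.5 (19.3 to 598) and MME, which encodes neprilysin, 40.4 (13.4 to 199). In all reads KMO changed by -1.44, ZBTB4 by -1.26 and NME6 by -2.27, and MME by -0.36 without passing. MIR99AHG, a host gene of microRNAs, read 187, 134 and 68.9 T>C reads with DMSO and 3.82, 0 and 4.81 with JQ1. MGP, a secreted inhibitor of calcification, read 56.6, 124 and 65.1 and then 2.29, 1.17 and 0, while its whole pool of 6058, 18909.7 and 24187 and 5743, 16728 and 21228 changed by -0.15 (SE 0.14) and passed on neither scale.

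Abundant genes showed the same with more reads behind them. IGFBP5, a secreted binding protein of insulin-like growth factors, read 1173, 1850.3 and 2294 T>C reads with DMSO and 19.1, 59.5 and 97.9 with JQ1 (log2 change -5.11, SE 0.22, adjusted p = 1.38e-16). Its whole pool read 64297, 111173 and 308858 and then 31569.7, 84731 and 241386 and changed by -0.59, or -0.13 on the median-ratio scale (adjusted p = 0.589). TFAP2B read 1202, 1728 and 887 T>C reads with DMSO and 35.1, 68.8 and 30.5 with JQ1 (log2 change -4.84, SE 0.20, adjusted p = 1.20e-16). For both, every JQ1 library lay far below every DMSO library.

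Their upstream sequences are printed for comparison with those of the rising genes, again from RefSeq in GRCh38.p14 with the same capitals. The windows are chr2:216695550-216695799, minus strand for IGFBP5, chr6:50818621-50818870, plus strand for TFAP2B and chr1:241532128-241532377, plus strand for KMO.
IGFBP5: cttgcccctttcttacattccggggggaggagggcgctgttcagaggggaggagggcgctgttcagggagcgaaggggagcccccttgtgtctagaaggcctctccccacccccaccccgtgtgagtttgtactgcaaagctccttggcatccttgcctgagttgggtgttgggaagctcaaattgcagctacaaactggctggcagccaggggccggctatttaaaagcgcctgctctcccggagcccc
TFAP2B: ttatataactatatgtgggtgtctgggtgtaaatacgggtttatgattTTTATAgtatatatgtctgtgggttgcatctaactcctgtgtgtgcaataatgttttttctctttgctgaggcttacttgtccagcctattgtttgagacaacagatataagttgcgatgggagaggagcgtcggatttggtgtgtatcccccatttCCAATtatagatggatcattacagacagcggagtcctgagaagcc
KMO: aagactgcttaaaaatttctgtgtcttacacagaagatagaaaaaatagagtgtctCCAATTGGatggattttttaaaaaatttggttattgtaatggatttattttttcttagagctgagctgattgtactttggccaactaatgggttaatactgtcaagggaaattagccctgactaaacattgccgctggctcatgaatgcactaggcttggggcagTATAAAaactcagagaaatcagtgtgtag
TFAP2B and KMO each held 1 match of the TATA box letters, the CCAAT box letters had 1 match in TFAP2B and 2 in KMO on opposite strands over shared letters, and IGFBP5 held neither. GC content was 61.2% in IGFBP5, 40.8% in TFAP2B and 36.0% in KMO.

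**Figure D4:**
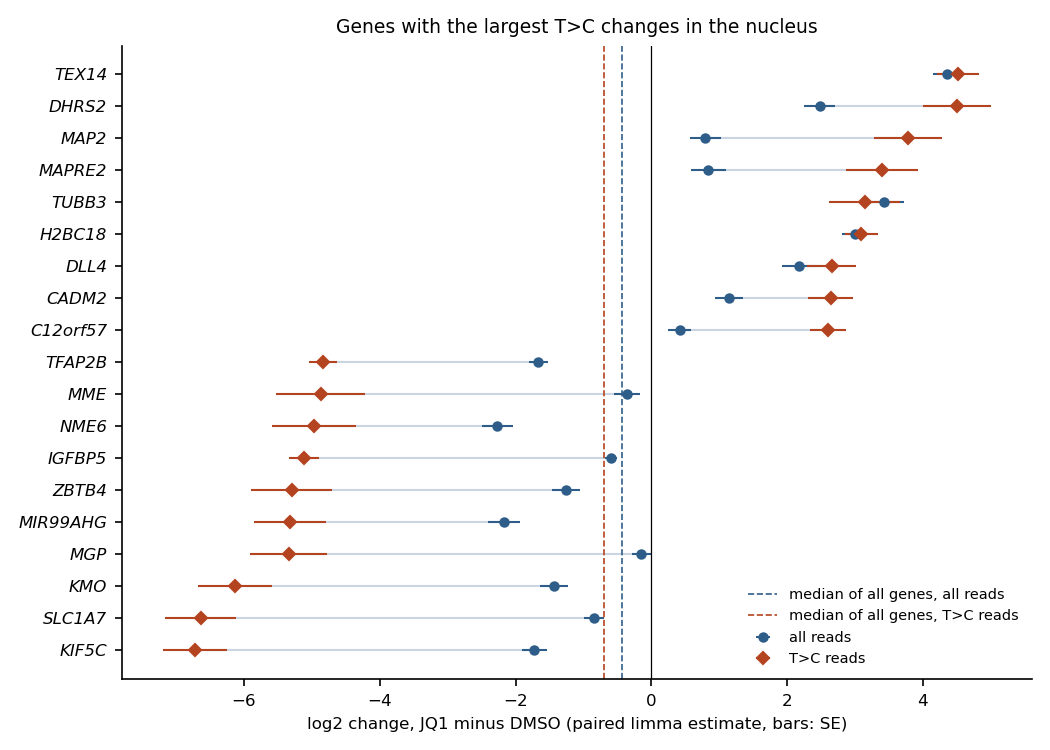
log2 change between JQ1 and DMSO (ERCC scale, bars are SE) in all reads (blue circles) and T>C reads (red diamonds) of genes with the largest T>C rises and falls. The 2 estimates lie close for TEX14, TUBB3 and H2BC18 and far apart for the falling genes, where MGP and MME have T>C changes of -5.34 and -4.87 beside changes in all reads of -0.15 and -0.36.

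In T>C reads the median of the histone list lay above that of all genes, and the median of the luminal list lay below it. Over all genes 2.7% rose and 48.1% fell in T>C reads, with a median of -0.69. On the median-ratio scale 14.6% were higher and 14.1% lower. Of 20 histone genes 14 rose and 0 fell, with a median of 1.03, and in the BET-induced list 8 of 10 rose. H1-2, a linker histone, read 12.1, 54.8 and 105 T>C reads with DMSO and 132, 201 and 419 with JQ1 (log2 change 2.39, SE 0.28, adjusted p = 1.39e-07). Of 34 luminal and HER2 genes 2 rose and 23 fell, with a median of -0.998, and on the median-ratio scale these were 6 higher and 14 lower. AGR2, a protein disulfide isomerase of secretory cells, read 559, 1003 and 511 T>C reads and then 38.2, 82.8 and 43.3 (log2 change -3.65, SE 0.21, adjusted p = 1.95e-13), while its whole pool changed by -0.26 (adjusted p = 0.0577 on the ERCC scale). TRPS1, a GATA-type repressor of luminal cells, changed by -2.74 (SE 0.19, adjusted p = 1.78e-10) and KRT7, a keratin, by -2.39 (SE 0.28, adjusted p = 7.86e-06). KRT8, a luminal keratin, rose from 185, 495 and 649 to 588, 866 and 1564 (log2 change 1.25, SE 0.19, adjusted p = 8.65e-06) although its whole pool changed by 0.01. H1-2, AGR2, TRPS1, KRT7 and KRT8 were chosen after their values were seen.

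The remaining lists were mixed in T>C reads. Their counts are to be read beside 2.7% of all genes that rose and 48.1% that fell, or 14.6% and 14.1% on the median-ratio scale. Immediate-early and short-lived mRNAs had 15 higher and 7 lower of 43 (27 higher and 4 lower on the median-ratio scale); EGR1 changed by 1.87 (SE 0.18, adjusted p = 7.33e-09), FOS by 1.84 (SE 0.23, adjusted p = 3.99e-07) and MYC by -1.30 (SE 0.23, adjusted p = 0.0267). HEXIM1 changed by 0.92 (SE 0.18, adjusted p = 1.80e-04) and NEAT1 by 0.94 (SE 0.20, adjusted p = 4.40e-04). BRD2 and MALAT1 changed by 0.23 and 0.29 and passed only on the median-ratio scale, and SERPINI1 (0.19) on neither. GATA3 changed by -0.98, which passed on the ERCC scale and not on the median-ratio scale (adjusted p = 0.411), as did ERBB2 at -1.09 (adjusted p = 0.106). Ribosome biogenesis and MYC target genes had 0 higher and 24 lower of 30, with a median of -0.87, beside 48.1% of all genes that fell in T>C reads, and 1 higher and 4 lower on the median-ratio scale. Cell cycle regulators had 0 higher and 18 lower of 31, and 5 higher and 6 lower on the median-ratio scale. MAP kinase feedback genes had 0 higher and 8 lower of 15, and 4 higher and 6 lower on the median-ratio scale. Ribosomal protein genes had 0 higher and 41 lower of 78, against 19 higher and 1 lower on the median-ratio scale.

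The T>C share of a gene, its T>C reads over all its reads, was compared without a scale factor, although the median gene's share also moved. Of 9219 genes with enough reads (means of 50 or more in all reads and 20 or more T>C reads), 413 had a lower share with JQ1 (4.48%) and 6 a higher one (0.0651%), 4.54% together, with a median log2 change of -0.24. Centred on the median gene, 85 genes passed, of which 5 had a higher and 80 a lower share, and with no replicate block 3 passed; without replicate 1 the count was 0. SLC1A7 fell furthest. Its T>C share was 2.72%, 2.39% and 0.437% with DMSO and 0.0285%, 0.00966% and 0% with JQ1, a log2 change of -5.80 (SE 0.52, adjusted p = 0.0147). The share of MGP changed by -5.19 (SE 0.47, adjusted p = 0.0147), that of KIF5C by -4.99 (SE 0.37, adjusted p = 0.014) and that of KMO by -4.70 (SE 0.29, adjusted p = 0.014). PLPP4, a lipid phosphatase, had 1.91%, 1.80% and 0.747% with DMSO and 0%, 0.0997% and 0% with JQ1 (log2 change -4.53, SE 0.34, adjusted p = 0.014), while its whole pool changed by -0.14.

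Shares that rose were few. MAPRE2 had a T>C share of 4.41%, 3.66% and 1.47% with DMSO and 23.5%, 25.1% and 18.3% with JQ1, a log2 change of 2.55 (SE 0.23, adjusted p = 0.0147). C12orf57 changed by 2.19 (SE 0.23, adjusted p = 0.017), DHRS2 by 2.02 (SE 0.34, adjusted p = 0.0409) and CADM2 by 1.497 (SE 0.22, adjusted p = 0.0327). FTL, which encodes ferritin light chain and has processed copies elsewhere in the genome, changed by 1.31 (SE 0.20, adjusted p = 0.0366). The DMSO share of DHRS2 rests on very few T>C reads. For MYC the shares were 51.9%, 60.1% and 46.7% and 61.4%, 59.4% and 51.2% and changed by 0.12 without passing. Calls on this measure rested on few libraries: without replicate 1 of both groups 0 genes passed, without replicate 2 there were 50 and without replicate 3 there were 524. With lower minimum means of 10 and 5 there were 0 calls, and 2449 genes had an unadjusted p under 0.05.

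With a pseudocount of 1 and the replicate block, no gene passed a test of whether the JQ1 effect differed between nucleus and cytoplasm. In limma's interaction fit over 12 libraries 0 of 13833 genes passed in all reads, where 1285 had an unadjusted p under 0.05. With T>C reads the fit called 0 of 11477, and 1632 had such a p. The T>C count moved with the settings: 547 genes passed with a pseudocount of 5 (67 higher and 480 lower in the nucleus), 34 with a minimum 5 times as high and 5 with no replicate block. Without replicate 1, 15 genes passed in all reads. This does not show that the effects are alike. For TEX14 the nuclear change was 4.36 and the cytoplasmic one 2.70. The difference of 1.66 (SE 0.37) did not pass after adjustment over all tested genes (adjusted p = 0.52). The nuclear and cytoplasmic changes of ACKR3 were -3.30 and -0.52, and those of FOXM1 were -2.99 and -1.37. TUBB3 (3.43 and 3.60), EGR1 (1.82 and 2.73) and ZNF689 (-2.85 and -2.55) had changes of the same sign in both fractions. The median difference between the nuclear and the cytoplasmic change was -0.28 in all reads. It was -0.05, -0.42 and -0.35 without replicate 1, 2 or 3. Median-ratio scaling gave 0.02, but it removes the shift of the median gene within each fraction and so cannot test this. In T>C reads the median difference was 0.07, with 0.18 at a pseudocount of 0.5 and -0.16 at a pseudocount of 5. In all reads it was thus negative whichever pair was left out, and in T>C reads its sign moved with the settings.

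Nuclear libraries of the other compounds share these DMSO controls, so their levels are set beside those of JQ1 without a test. The all-read level of TEX14 was 93.4 ± 20.02 with DMSO (SD, n = 3), 2054 ± 1019.8 with JQ1 (SD, n = 3), 2199 ± 1049 with IBET151 (SD, n = 2), 812 ± 454 with JQ1-VHL (SD, n = 3) and 1006 ± 366 with IBET151-VHL (SD, n = 3). For HEXIM1 the levels in the same order were 5263 ± 3025, 9033 ± 5176, 9085 ± 2971, 2491 ± 1434 and 2376 ± 1196. MYC stood at 556 ± 372, 233 ± 170.1, 238 ± 220.3, 25.3 ± 15.01 and 27.2 ± 15.4. The labels name no batch, and a run here is only a stretch of neighbouring library numbers. These means are not matched by run. Neither IBET151 library comes from the first run, where the summed ERCC-scaled reads of nuclear libraries were lowest. Replicate 3 of the VHL compounds comes from another run than replicate 3 of DMSO and JQ1.

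Gene structure is given for the called genes as a description. Of genes that rose under both scalings in all reads, 95.7% matched the GENCODE v29 annotation; their median span was 22.5 kb and 8.27% had a single exon. Over all tested genes the span was 36.5 kb with 2.27% single-exon genes, and over genes lower under both scalings it was 29.8 kb with 3.04%. The median nuclear level was 268 ERCC-scaled reads for genes higher under both scalings, 771 for genes lower under both and 1012 for all tested genes. The cytoplasmic T>C share with DMSO had medians of 1.52%, 1.27% and 0.634% in the same order. Level, span and share move together with the class here, and their part in the calls was not tested.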

How the data were processed

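The deposited values are signal, which the deposited tables' titles call ERCC-normalized counts; in each library 1 read is worth the same value for every gene. A first table holds all reads and another T>C reads. Per the submitters' processing notes, bcl2fastq, Trimmomatic 0.39, HISAT2, HTSeq and DESeq2 were used with human (GRCh37, hg19) and fly (dm3) builds; the calling of T>C reads and the use of strand are not given in the sources used here. Whole reads were recovered, with 100% of values within 0.001 of a whole read, for library depths and for alternative tests.

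Nuclear JQ1 and DMSO libraries were compared with limma 3.58.1 (R 4.3.3; trend, Benjamini-Hochberg adjustment over all tested genes, threshold 0.05) on log2(value + 1), with the replicate number as a block, so fold changes understate those of low genes. Genes needed 10 in all reads or 5 in T>C reads in at least 2 of 6 libraries. The T>C share was fitted as the log2 ratio of both tables. The numbers pair the libraries, since deviations from group means correlated at 0.387 to 0.783 for same-numbered libraries in all reads (0.276 to 0.395 in T>C reads) against -0.70 to 0.19 (-0.30 to 0.03) for others. Alternatives were edgeR 4.0.16 and DESeq2 1.42.0 on recovered reads, other scalings, filters, pseudocounts and samples. The paired limma fits of all reads and of T>C reads were tested on simulated reads. These held no shift of all genes between the groups, so that test could not show calls due to such a shift.

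Named genes were the 10 largest rises and 10 largest falls per readout with the same sign in 3 pairs (5 each way for the share), for each list the 4 genes of smallest p in all reads, and a fixed set of known genes. Members and lists were chosen with earlier results of these data known. Genes without a symbol, 475 of 16482, were tested and not named. A few genes that the rule picks are not reported here. Summed signal was compared with exact permutation of pairs.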

Additional observations from a re-analysis of the deposited data

How the results depend on the processing

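Genes called in all reads numbered 6335 in the paired fit on the ERCC scale. They fell to 2 with no replicate block, to 10 over all 14 nuclear libraries with no block and to 22 with median-ratio scaling and no block. Median-ratio scaling gave 3466, edgeR with TMM scaling 3366 (1720 higher, 1646 lower), library weights 11347, and leaving out a replicate pair 1607 to 5186. With the deposited scaling kept, edgeR on recovered reads called 383 higher and 5911 lower, and DESeq2 339 and 5422. Calls in T>C reads were 5822 in the paired fit, 471 with no replicate block and 291 over 14 libraries with no block. With the run of library numbers as block over 14 libraries they were 1404. They were 675 with median-ratio scaling and no block, 3288 with median-ratio scaling, 3451 with TMM and 3947 to 5687 without a pair. Calls in the T>C share, 419, were 3 with no replicate block, 85 when centred on the median gene, 835 with minimum means 5 times as high, 0 with means of 10 and 5, 637 with a pseudocount of 5 and 0 to 524 without a pair. Calls between fractions, 0, became 15 in all reads without replicate 1 (0 to 15), and in T>C reads 34 with a minimum 5 times as high, 5 with no replicate block and 547 with a pseudocount of 5. The paired and unpaired fits give the same log2 changes, and the cause of each other difference was not tested.

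A few named genes changed sign. In all reads the log2 changes of APP, RPN1 and SNHG16 were 0.12, 0.030 and 0.029 with TMM and 0.13, 0.046 and 0.046 with median-ratio scaling, with or without the block. Median-ratio scaling gave DANCR 0.0021, DDOST 0.013 and PLPP4 0.32, and library weights gave FTX 0.10. In T>C reads APP, PDIA3, RPL23A and SNHG32 were 0.070, 0.62, 0.20 and 0.20 with TMM and 0.081, 0.63, 0.22 and 0.21 with median-ratio scaling, and DANCR was 0.22. The share of ADAMTS4 changed by 0.14 with a pseudocount of 5. Over all alternatives, values for named genes kept their direction and side of the threshold in 1454 of all-read cases and lost the threshold in 405. In T>C reads these were 1498 and 299. Many of these alternatives differ little from the main fit. With no replicate block, 8 named genes kept both in all reads and 110 lost the threshold, against 45 and 70 in T>C reads. Only 2 of all tested genes passed in all reads without the block, so most of the 8 passed in neither fit. Replicate 3, with 751730 to 798676 T>C reads, limits what T>C reads can show for low genes.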
